A study of Mus musculus with 8 samples.

Results

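The 42 genes described here carry out mitosis: they encode the kinases that start it, the checkpoint that times it, the kinetochores and spindle that move the chromosomes, and the machines that condense, separate and divide them. Members were chosen by gene symbol, from a list of 42 mitotic genes, among the 24675 genes with 1 symbol on the array, and 41 were measured. The remaining gene, Ccnb1, was not named in the annotation used and was not analysed here. Tumors were grown from B16-F10, an established mouse melanoma line, injected subcutaneously into female C57BL/6J mice of 9 weeks. Before injection the mice had 2 weeks on 1 of 2 diets, chow (CD) or a pro-atherogenic diet rich in fat and cholesterol (HFHCD, called HFD in the sample titles), and 4 whole tumors per diet were taken at day 9 after injection. All 8 tumors came from the same injected line, and diet is the only difference the labels give. They were measured whole, with their host stroma and leukocytes, on 1 Affymetrix MouseGene2.0ST array each, and values are log2 expression after RMA, a method that corrects background and scales the arrays to each other. On this scale a difference of 1 is a doubling. The comparison of HFHCD with CD asked which transcripts of the tumor differed with the diet.

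In mitosis, CDK1 bound to cyclin B phosphorylates a wide range of proteins, condensin and topoisomerase II compact and disentangle the chromosomes, and the NDC80 complex of the kinetochore holds microtubule ends. Unattached kinetochores load MAD2, BUBR1 and BUB3 and so restrain CDC20, the activator of the anaphase-promoting complex (APC/C). Once every kinetochore is attached, the APC/C marks securin and cyclin B for destruction, separase opens cohesin, and the central spindle places the cleavage furrow. Most of these genes are transcribed in G2 and mitosis, through the DREAM and B-MYB complexes at the CHR element, NF-Y at CCAAT boxes, and FOXM1. Their summed RNA in a tissue is therefore widely used as a gauge of how many cells divide. In whole tumors, fewer cells of a type and less RNA per cell cannot be told apart.

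The start-site regions of 8 members are shown because many members share promoter motifs that played no part in choosing them. They belong to the 5 members that were lower on HFHCD and have a RefSeq promoter window, to Plk1 and Cdk1, the master kinases, and to Ccnb2, the member with the largest difference in the opposite direction. Each runs 5' to 3' on the gene's strand from base -120 to base 50 around the annotated start, from RefSeq promoters of build GRCm38.p6. Capitals mark the CHR element (TTTGAA, or its reverse complement TTCAAA) and the CCAAT box (CCAAT, or its reverse complement ATTGG).
Cdca8, chr4:124936868-124937037, minus strand: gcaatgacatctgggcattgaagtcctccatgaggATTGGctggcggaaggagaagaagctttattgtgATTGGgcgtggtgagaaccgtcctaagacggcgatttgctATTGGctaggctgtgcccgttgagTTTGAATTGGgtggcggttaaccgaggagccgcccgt
Top2a, chr11:99024140-99024309, minus strand: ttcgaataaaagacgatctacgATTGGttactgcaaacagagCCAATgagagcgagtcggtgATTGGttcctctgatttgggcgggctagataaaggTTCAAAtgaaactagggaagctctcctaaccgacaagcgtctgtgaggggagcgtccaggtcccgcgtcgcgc
Anln, chr9:22389157-22389326, minus strand: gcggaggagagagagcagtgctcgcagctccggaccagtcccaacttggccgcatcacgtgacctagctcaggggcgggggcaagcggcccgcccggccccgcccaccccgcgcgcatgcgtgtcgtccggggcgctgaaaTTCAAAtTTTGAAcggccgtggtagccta
Smc2, chr4:52439101-52439270, plus strand: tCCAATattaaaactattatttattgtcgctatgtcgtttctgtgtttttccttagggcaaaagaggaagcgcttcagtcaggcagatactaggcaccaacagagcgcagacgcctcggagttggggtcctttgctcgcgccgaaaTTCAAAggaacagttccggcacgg
Ttk, chr9:83834569-83834738, plus strand: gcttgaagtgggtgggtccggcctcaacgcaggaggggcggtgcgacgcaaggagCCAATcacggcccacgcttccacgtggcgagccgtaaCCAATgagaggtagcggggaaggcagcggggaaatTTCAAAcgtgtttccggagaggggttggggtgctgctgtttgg
Plk1, chr7:122159315-122159484, plus strand: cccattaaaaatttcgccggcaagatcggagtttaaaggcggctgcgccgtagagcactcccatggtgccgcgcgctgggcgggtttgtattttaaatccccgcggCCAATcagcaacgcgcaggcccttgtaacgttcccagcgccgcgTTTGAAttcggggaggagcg
Cdk1, chr10:69352863-69353032, minus strand: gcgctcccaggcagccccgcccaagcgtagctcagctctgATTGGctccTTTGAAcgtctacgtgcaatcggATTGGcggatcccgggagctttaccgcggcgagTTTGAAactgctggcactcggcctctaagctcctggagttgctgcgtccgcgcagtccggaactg
Ccnb2, chr9:70421505-70421674, minus strand: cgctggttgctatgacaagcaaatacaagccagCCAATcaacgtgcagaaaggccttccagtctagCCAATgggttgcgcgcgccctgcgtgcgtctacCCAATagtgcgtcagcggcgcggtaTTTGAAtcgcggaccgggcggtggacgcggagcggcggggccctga

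In Cdca8 the CHR element and the last CCAAT box share bases, and the joined capitals there hold both. Windows of 250 bases before to 50 after the start were found for 34 of the 42 members (37 windows, since Bub3, Ect2 and Prc1 have 2), and not for Aurkb, Ccna2, Cdc25c, Foxm1, Incenp, Kif20a, Smc4 and Tpx2. On either strand, a CHR element was found in 28 of the 37 windows (75.7%) against 17.9% of all 32851 windows of the same length. A CCAAT box was found in 75.7% of members' windows and 37.4% of all windows, and both motifs in 67.6% against 6.95%. In the windows of other mitotic genes the CHR element was found in 44.7% and the CCAAT box in 60.5%, and in those of G1/S and DNA replication genes in 15.4% and 64.1%. With 1 window per gene, the first base of the 32 CHR matches of members lay at a median of -1 from the start, 71.9% of them from base -60 onward, whereas the 5639 matches of all genes had a median of -124 and 27.8% lay there. The CHR element was present in 5 of 5 called members with a window and in 20 of 28 members that were not called. A match is a description of these letters and not a measured binding site.

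**Figure D1:**
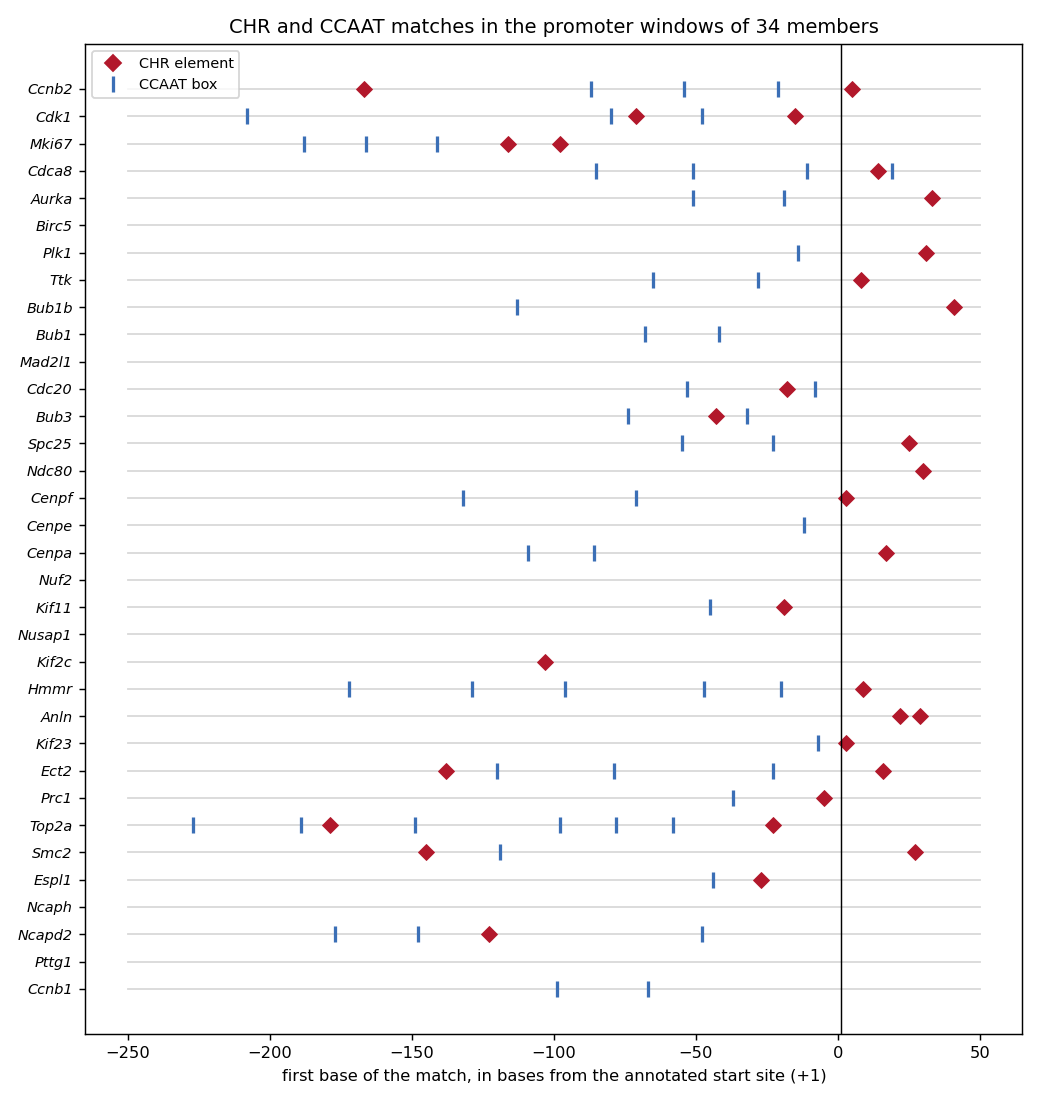
Matches to the CHR element (red diamonds) and the CCAAT box (blue bars) in the promoter window of each of 34 members, 1 window per gene, by distance in bases of the first base of the match from the annotated start site (vertical line). The CHR matches gather near the start, at a median of -1, and most CCAAT matches lie upstream of it, at a median of -67.5. From base -60 onward lie 71.9% of the CHR matches and 46.4% of the CCAAT matches.

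Among the 41 measured members, 7 were lower on HFHCD and 0 were higher at limma's unadjusted p under 0.05, and 34 were not called. Over all 24675 genes, 3.91% were lower and 4.76% higher at the same threshold, and the share of members that were lower was 17.1%. The count moved with single tumors and with scaling. It was 2 (4.88% of 41) without CD 2, where 4.28% of all genes were lower, 2 without HFHCD 2 (2.72%) and 2 after median centring (3.08%), but 13 without CD 1 (7.16%). The 7 were Cdca8 and Incenp of the chromosomal passenger complex, the checkpoint kinase Ttk, the cytokinesis gene Anln, and Top2a, Smc4 and Smc2, which compact chromosomes. All 7 differences were small, the largest being 1.28-fold. After adjustment over all genes, 0 members and 0 genes passed 0.05 by limma, and the smallest adjusted p was 0.449 among members and 0.32 among all genes. The methods' t-test, without limma's shared variance, called 6 members lower at unadjusted p under 0.05. The median log2 fold change of the members was -0.12 against 0.00 over all genes, with 32 members below 0 and 9 above it. All 41 members lay above the 40th percentile of all array values (4.49). Among the genes above it, 5.19% were lower and 6.43% higher.

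**Figure D2:**
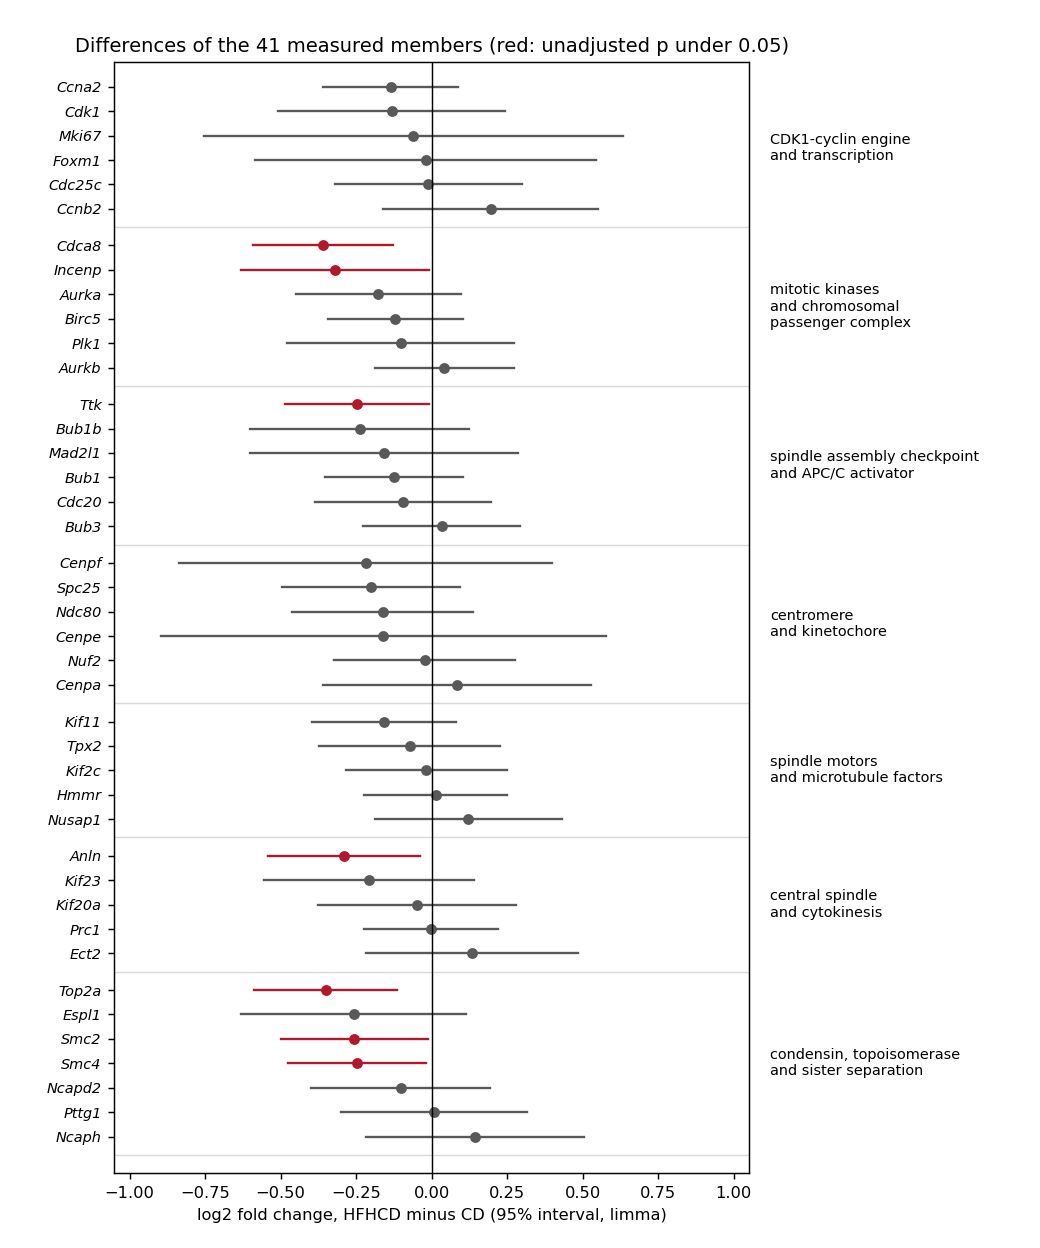
Log2 fold change of HFHCD minus CD for each of the 41 measured members, grouped by role, with the 95% interval of limma (n = 4 tumors per group). The 7 members in red had an unadjusted p under 0.05 and all lie below 0, and the values run from -0.36 for Cdca8 to 0.20 for Ccnb2.

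Condensation and separation of chromosomes was the role with the most calls, 3 of 7 members lower and a median log2 fold change of -0.25. Of all genes 3.91% were lower, and the role classes are too small to be ranked by their counts. Top2a, the topoisomerase that untangles sister DNA, was measured at 10.668, 11.068, 11.003 and 10.899 in CD 1 to CD 4 and 10.511, 10.477, 10.605 and 10.644 in HFHCD 1 to HFHCD 4. Every HFHCD tumor was below every CD tumor, and CD 1 was the lowest of its group. HFHCD minus CD came to a log2 fold change of -0.35 (SE 0.11, 95% interval -0.59 to -0.11, n = 4 per group), 1.27-fold lower, and limma's unadjusted p was 0.00839, the adjusted p 0.462 and the exact permutation p 0.0286, the smallest that 4 against 4 allows. Smc4 and Smc2 are the paired ATPase arms shared by both condensin complexes. Smc4 was measured at 10.24, 10.61, 10.50 and 10.33 in CD 1 to CD 4 and 10.26, 10.13, 10.12 and 10.19 in HFHCD 1 to HFHCD 4. Only HFHCD 1 reached into the CD range, just above CD 1. On the log2 scale the difference was -0.25 (SE 0.10, 95% interval -0.47 to -0.02, n = 4 per group), and limma's unadjusted p was 0.0374, the adjusted p 0.543 and the exact permutation p 0.0571.

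Smc2 was measured at 9.21, 9.44, 9.41 and 9.46 in CD 1 to CD 4 and 9.01, 8.95, 9.27 and 9.26 in HFHCD 1 to HFHCD 4. CD 1 again was the lowest CD tumor and was overlapped by HFHCD 3 and HFHCD 4. The log2 fold change was -0.26 (SE 0.11, 95% interval -0.50 to -0.01, n = 4 per group), and limma's unadjusted p was 0.0409, the adjusted p 0.552 and the exact permutation p 0.0857. The condensin I subunits Ncapd2 and Ncaph were not called, at log2 fold changes of -0.10 and 0.14, nor was Espl1, the separase that cleaves cohesin, at -0.26 (95% interval -0.63 to 0.11). Pttg1, the securin that holds separase inactive, was measured at 7.96, 7.56, 7.36 and 7.73 in CD 1 to CD 4 and 7.50, 7.80, 7.73 and 7.62 in HFHCD 1 to HFHCD 4. The groups overlapped fully, and the log2 fold change was 0.01 (SE 0.14, 95% interval -0.30 to 0.32, n = 4 per group). Top2a kept its call in all 17 alternatives that used the unadjusted threshold. Smc4 lost it in 10, among them the fits without CD 2, CD 3, HFHCD 2, HFHCD 3 or HFHCD 4 (log2 fold change from -0.31 to -0.18 over the 8 fits without 1 tumor). Smc2 lost it in 8, among them the fits without CD 2, CD 3, CD 4, HFHCD 1 or HFHCD 2 (from -0.31 to -0.20).

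The chromosomal passenger complex, which corrects wrong attachments and later guides cytokinesis, is built of Aurora B (Aurkb), its scaffold INCENP, borealin (Cdca8) and survivin (Birc5). Of the 6 kinases and passenger genes, 2 were lower, and the class median was -0.15. Of all genes 3.91% were lower, and the class is too small to be read by its count. Cdca8 was measured at 8.49, 8.71, 8.58 and 8.66 in CD 1 to CD 4 and 8.07, 8.17, 8.39 and 8.38 in HFHCD 1 to HFHCD 4. It was the second member whose groups did not overlap, every HFHCD tumor being below every CD tumor. HFHCD minus CD came to a log2 fold change of -0.36 (SE 0.10, 95% interval -0.59 to -0.13, n = 4 per group), 1.28-fold lower, and limma's unadjusted p was 0.00652, the adjusted p 0.449 and the exact permutation p 0.0286. Incenp was measured at 7.870, 8.394, 8.306 and 8.097 in CD 1 to CD 4 and 7.627, 7.779, 7.995 and 7.987 in HFHCD 1 to HFHCD 4. CD 1 lay within the HFHCD range and the other CD tumors above it. On the log2 scale the difference was -0.32 (SE 0.14, 95% interval -0.63 to -0.01, n = 4 per group), and limma's unadjusted p was 0.0442, the adjusted p 0.559 and the exact permutation p 0.114.

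Aurkb, the catalytic subunit, was measured at 9.79, 9.97, 9.63 and 10.04 in CD 1 to CD 4 and 9.91, 9.88, 9.92 and 9.90 in HFHCD 1 to HFHCD 4. The 4 HFHCD tumors were nearly equal (SD 0.016) and lay inside the CD range, with a log2 fold change of 0.04 (SE 0.10, 95% interval -0.19 to 0.27, n = 4 per group). Birc5 and Aurka, the Aurora kinase of centrosomes, had log2 fold changes of -0.12 and -0.18 and were not called. Plk1, the polo kinase of mitotic entry, was measured at 9.97, 10.77, 10.30 and 10.70 in CD 1 to CD 4 and 10.26, 10.29, 10.35 and 10.42 in HFHCD 1 to HFHCD 4. CD 2 and CD 4 were the highest tumors and CD 1 the lowest of all 8. The log2 fold change was -0.10 (SE 0.17, 95% interval -0.48 to 0.27, n = 4 per group), with an unadjusted p of 0.555 by limma. It was -0.26 without CD 1 and 0.01 without CD 2. Groups with no overlap and HFHCD lower were found for 2 members (4.88%), Cdca8 and Top2a, and for 2.27% of all genes. The reverse, HFHCD higher, was found for 0 members and 2.93% of all genes. Cdca8 kept its call in all 17 alternatives at the unadjusted threshold, whereas Incenp lost it in 9, among them the fits without CD 2, CD 3, CD 4, HFHCD 1 or HFHCD 2 (log2 fold change from -0.42 to -0.24 over the 8 fits without 1 tumor).

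**Figure D3:**
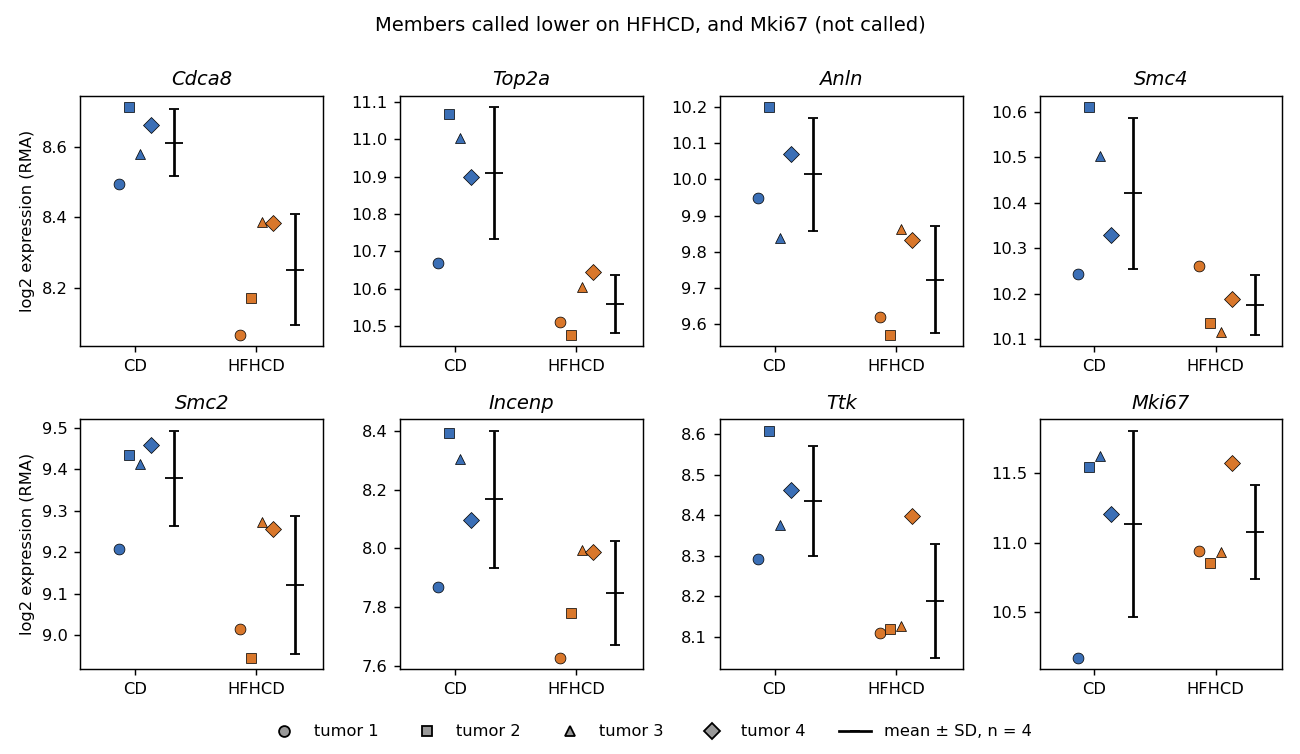
Log2 expression of the 7 members called lower on HFHCD and of Mki67, which was not called, in each of the 4 CD tumors (blue) and 4 HFHCD tumors (orange), with the mean and SD beside the points. Each panel has its own vertical axis, which does not start at 0, and the groups do not overlap for Cdca8 and Top2a.

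Among the spindle assembly checkpoint genes and Cdc20, 1 of 6 was lower and the class median was -0.14. Over all genes 3.91% were lower, and 1 call among 6 genes is too few to describe the class. Ttk (MPS1), the kinase that starts checkpoint signalling at kinetochores, was measured at 8.29, 8.61, 8.38 and 8.46 in CD 1 to CD 4 and 8.11, 8.12, 8.13 and 8.40 in HFHCD 1 to HFHCD 4. HFHCD 4 stood in the CD range, apart from the other 3 HFHCD tumors, which were close to each other. HFHCD minus CD came to a log2 fold change of -0.25 (SE 0.11, 95% interval -0.48 to -0.01, n = 4 per group), and limma's unadjusted p was 0.0446, the adjusted p 0.56 and the exact permutation p 0.0857. The call was lost in 10 of 17 alternatives, among them the fits without CD 2, CD 3, CD 4, HFHCD 1, HFHCD 2 or HFHCD 3 (log2 fold change from -0.32 to -0.19 over the 8 fits without 1 tumor). Bub3, the adaptor that brings BUB1 and BUBR1 to kinetochores, was measured at 11.21, 11.25, 10.79 and 11.21 in CD 1 to CD 4 and 11.11, 11.10, 11.23 and 11.16 in HFHCD 1 to HFHCD 4. CD 3 alone stood low and the other 7 tumors lay close together. On the log2 scale the difference was 0.03 (SE 0.12, 95% interval -0.23 to 0.29, n = 4 per group), or -0.07 without CD 3. Bub1b, which encodes BUBR1, Mad2l1, which encodes MAD2, Bub1 and Cdc20 had log2 fold changes of -0.24, -0.16, -0.12 and -0.09 and were not called.

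None of the 6 centromere and kinetochore genes was called (0 of 6 at limma's unadjusted p under 0.05), with a median of -0.16. Spc25, a subunit of the NDC80 complex that anchors it to the inner kinetochore, was measured at 9.17, 8.65, 8.68 and 8.57 in CD 1 to CD 4 and 8.55, 8.60, 8.54 and 8.57 in HFHCD 1 to HFHCD 4. CD 1 was far above the other 7 tumors. The log2 fold change was -0.20 (SE 0.13, 95% interval -0.50 to 0.09, n = 4 per group), and limma's unadjusted p was 0.158, the adjusted p 0.722 and the exact permutation p 0.0857. Without CD 1 it was -0.07. Nuf2, the partner of NDC80 in the microtubule-binding head, was measured at 9.90, 9.55, 9.23 and 9.54 in CD 1 to CD 4 and 9.59, 9.48, 9.58 and 9.49 in HFHCD 1 to HFHCD 4. CD 1 was again the highest of 8 and CD 3 the lowest, and the log2 fold change was -0.02 (SE 0.13, 95% interval -0.32 to 0.28, n = 4 per group), or 0.09 without CD 1 and -0.13 without CD 3. Ndc80 itself was at -0.16. Cenpf and Cenpe, large proteins of the outer kinetochore of which the second is a motor, had log2 fold changes of -0.22 and -0.16 with intervals of -0.84 to 0.40 and -0.90 to 0.58. Cenpa, the histone H3 variant that marks centromeres, was at 0.08. The CD SD was 0.55 for Cenpf, 0.74 for Cenpe and 0.43 for Cenpa, where CD 1 stood lowest of 8, lowest of 8 and highest of 8.

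No spindle motor or microtubule factor was called either (0 of 5), and the class median was -0.02. Kif11, the kinesin that pushes spindle poles apart, was measured at 9.49, 9.73, 9.45 and 9.51 in CD 1 to CD 4 and 9.37, 9.21, 9.39 and 9.58 in HFHCD 1 to HFHCD 4. CD 2 was the highest tumor and HFHCD 4 came next, and the log2 fold change was -0.16 (SE 0.11, 95% interval -0.40 to 0.08, n = 4 per group). Hmmr, a spindle-associated hyaluronan receptor, was measured at 9.12, 9.27, 8.86 and 9.18 in CD 1 to CD 4 and 9.16, 9.02, 9.20 and 9.12 in HFHCD 1 to HFHCD 4. CD 3 was the lowest tumor and CD 2 the highest, and the log2 fold change was 0.01 (SE 0.11, 95% interval -0.22 to 0.25, n = 4 per group). Tpx2, the activator of Aurora A, the microtubule depolymerase Kif2c and the microtubule bundler Nusap1 had log2 fold changes of -0.07, -0.02 and 0.12.

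Of the central spindle and cytokinesis genes 1 of 5 was lower, and the class median was -0.05. With 3.91% of all genes lower, 1 call among 5 genes is too few to describe the class. Anln, the actin scaffold of the cleavage furrow, was measured at 9.95, 10.20, 9.84 and 10.07 in CD 1 to CD 4 and 9.62, 9.57, 9.86 and 9.83 in HFHCD 1 to HFHCD 4. HFHCD 1 and HFHCD 2 were lowest, and the overlap was narrow, since CD 3 lay just below HFHCD 3. HFHCD minus CD came to a log2 fold change of -0.29 (SE 0.11, 95% interval -0.54 to -0.04, n = 4 per group), and limma's unadjusted p was 0.0281, the adjusted p 0.529 and the exact permutation p 0.0571. It lost its call in 6 of 17 alternatives, among them the fits without CD 2, CD 4, HFHCD 1 or HFHCD 2 (log2 fold change from -0.35 to -0.23 over the 8 fits without 1 tumor). Prc1, the bundler of antiparallel microtubules in the central spindle, was measured at 9.42, 9.67, 9.50 and 9.65 in CD 1 to CD 4 and 9.47, 9.53, 9.49 and 9.73 in HFHCD 1 to HFHCD 4. HFHCD 4 was the highest tumor and CD 1 the lowest, and the log2 fold change was -0.0026 (SE 0.10, 95% interval -0.22 to 0.22, n = 4 per group). The centralspindlin kinesin Kif23, the midzone kinesin Kif20a and Ect2, which activates RhoA at the furrow, had log2 fold changes of -0.21, -0.05 and 0.13 and were not called.

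The engine of mitotic entry and its transcription had 0 calls among 6 members, with a class median of -0.04. Cdk1 was measured at 10.06, 9.46, 9.17 and 9.49 in CD 1 to CD 4 and 9.48, 9.36, 9.45 and 9.36 in HFHCD 1 to HFHCD 4. CD 1 was far above the other tumors, CD 3 was the lowest, and the 4 HFHCD tumors lay between (SD 0.062). On the log2 scale the difference was -0.13 (SE 0.17, 95% interval -0.51 to 0.24, n = 4 per group). Without CD 1 it was 0.04, and without CD 3 it was -0.26. Ccna2, the cyclin of S phase and early mitosis, was measured at 10.38, 10.52, 10.38 and 10.57 in CD 1 to CD 4 and 10.24, 10.19, 10.39 and 10.50 in HFHCD 1 to HFHCD 4. CD 4 and CD 2 were the highest tumors and HFHCD 2 the lowest, and the log2 fold change was -0.14 (SE 0.10, 95% interval -0.36 to 0.09, n = 4 per group). Ccnb2, a cyclin partner of CDK1, was at 0.20 (95% interval -0.16 to 0.55) and Cdc25c, the phosphatase that activates CDK1, at -0.01.

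Foxm1, the transcription factor of G2 and mitotic genes, was measured at 9.05, 10.24, 10.15 and 10.17 in CD 1 to CD 4 and 9.64, 9.93, 9.84 and 10.12 in HFHCD 1 to HFHCD 4. CD 1 was more than 1 log2 unit below the other CD tumors, and the log2 fold change was -0.02 (SE 0.25, 95% interval -0.58 to 0.54, n = 4 per group). Without CD 1 it was -0.30 (limma's unadjusted p = 0.0303, 3 CD and 4 HFHCD tumors). It was 0.09 without CD 2, 0.06 without CD 3 and 0.07 without CD 4, and was called in none of these. With 1 HFHCD tumor left out it ran from -0.10 to 0.06, again uncalled. Mki67, which coats mitotic chromosomes as Ki-67 and is the usual marker of dividing cells, was measured at 10.17, 11.54, 11.62 and 11.21 in CD 1 to CD 4 and 10.94, 10.85, 10.94 and 11.58 in HFHCD 1 to HFHCD 4. CD 1 was the lowest of 8 by far, and HFHCD 4 stood with CD 2 and CD 3, apart from the other HFHCD tumors. The log2 fold change was -0.06 (SE 0.31, 95% interval -0.75 to 0.63, n = 4 per group), with an unadjusted p of 0.849 by limma. It was -0.38 without CD 1 (unadjusted p = 0.0708), 0.10 without CD 3 and 0.07 without CD 2. By immunohistochemistry, the paper reported a higher Ki-67 index in tumors on HFHCD. That is a measure of protein in tumor sections and was not compared with these arrays.

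The members varied more among CD tumors than among HFHCD tumors. The median SD of a member was 0.257 in CD and 0.139 in HFHCD, against 0.197 and 0.136 over all genes, and the CD SD was the larger for 35 of 41 members. CD 2 was the highest of the 8 tumors for 16 members and CD 4 for 8, and neither was the lowest for any of the 41. CD 3 was the lowest for 19 members and the highest for 3. CD 1 was split, the highest for 10 members, which were Cdk1, Mad2l1, Cdc20, Spc25, Ndc80, Nuf2, Cenpa, Nusap1, Aurka and Pttg1, and the lowest for 10 others, which were Mki67, Foxm1, Plk1, Cenpe, Cenpf, Tpx2, Kif23, Prc1, Espl1 and Ncapd2. Among HFHCD tumors, HFHCD 4 was the highest of its group for 20 members. The mean over the 41 members was 9.29, 9.48, 9.24 and 9.45 in CD 1 to CD 4 and 9.20, 9.19, 9.28 and 9.36 in HFHCD 1 to HFHCD 4. CD 2 and CD 4 were above every HFHCD tumor, while CD 1 and CD 3 lay within the HFHCD range. Both CD 2 and CD 4 exceeded every HFHCD tumor for 21 members, and both CD 1 and CD 3 for 4. The median half-width of the members' 95% intervals was 0.299, and for 24 members the interval lay within -0.5 and 0.5.

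**Figure D4:**
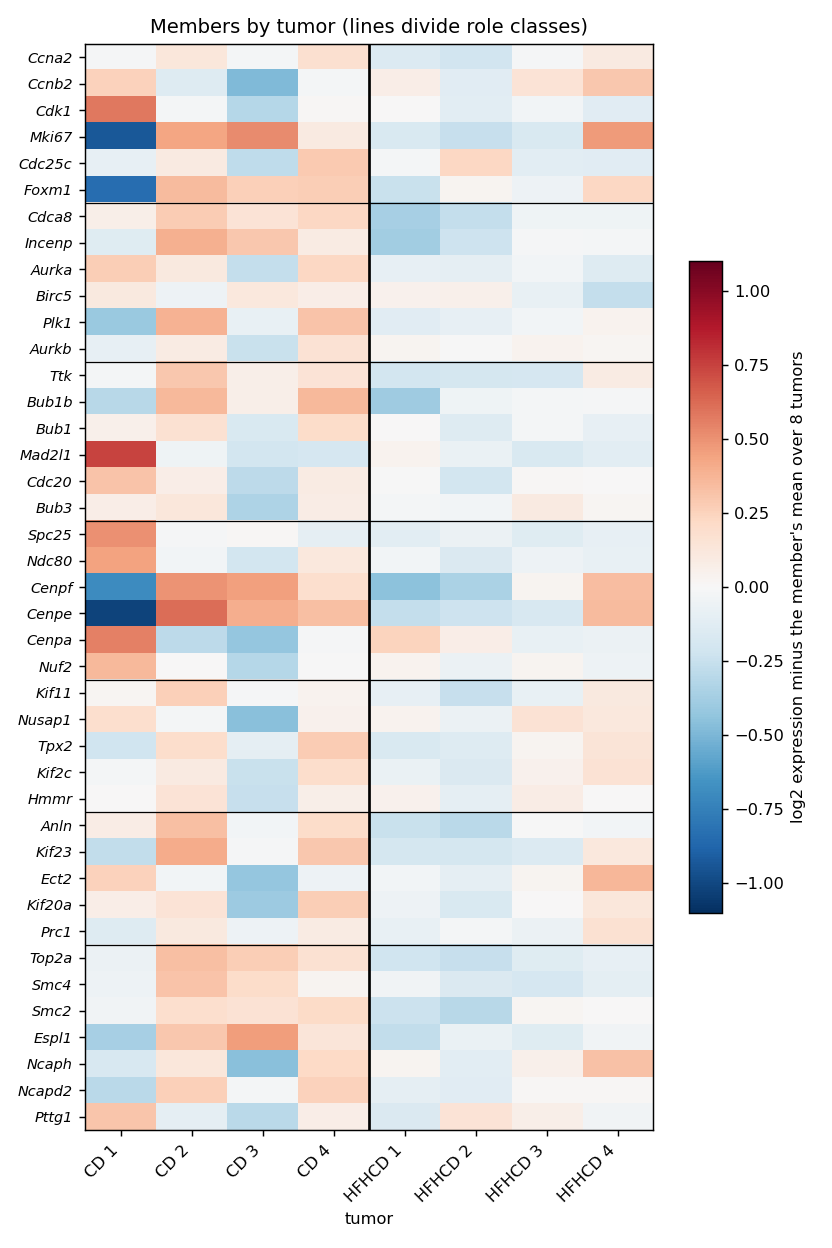
Log2 expression of the 41 measured members in each of the 8 tumors, as the difference from that member's mean over the 8 tumors (red above it, blue below it), with horizontal lines between role classes. CD 2 and CD 4 are red for most members, whereas CD 1 is the highest of 8 for 10 members and the lowest of 8 for 10 others.

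CD 1 and CD 3, the CD tumors with the lower member means, had the highest levels of macrophage, fibroblast, skeletal muscle and T and NK cell markers, but not of endothelial or keratinocyte markers. Macrophage markers (13 of 14 listed were measured) averaged 7.72, 6.65, 8.18 and 6.50 in CD 1 to CD 4 and from 5.83 to 6.49 in HFHCD tumors, and 10 of 13 were lower on HFHCD. The average of fibroblast markers was 7.82, 6.85, 8.24 and 6.74 in CD 1 to CD 4, against 5.99 to 6.13 in HFHCD tumors, with 8 of 10 lower. Skeletal muscle markers had averages of 7.32, 6.30, 7.84 and 5.70 in CD 1 to CD 4, against 5.28 to 5.85 in HFHCD tumors, with 7 of 9 lower. At limma's unadjusted p under 0.05, 3.91% of all genes were lower and 4.76% higher. Endothelial markers were lower for 1 of 7, T and NK cell markers for 0 of 9 and keratinocyte markers for 1 of 6. Averages in CD 1 to CD 4 were 6.82, 6.99, 7.27 and 7.39 for endothelial markers and 4.91, 4.63, 6.02 and 4.74 for T and NK cell markers. For keratinocyte markers they were 5.181, 5.359, 6.997 and 4.659. CD 1 was the lowest CD tumor for the endothelial list. Melanocyte markers, which define the injected cells, averaged 10.91 to 11.10 in CD tumors and 11.09 to 11.20 in HFHCD tumors. All 13 were above 4.49, and 3 of 13 were higher on HFHCD (Oca2, Mc1r and Trpm1, at log2 fold changes of 0.46, 0.42 and 0.24). Levels above 4.49 were reached by 13 of 13 macrophage, 10 of 10 fibroblast, 8 of 9 muscle, 6 of 7 endothelial, 5 of 9 T and NK cell and 4 of 6 keratinocyte markers. The part of these cells in the members' differences was not tested.

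**Figure D5:**
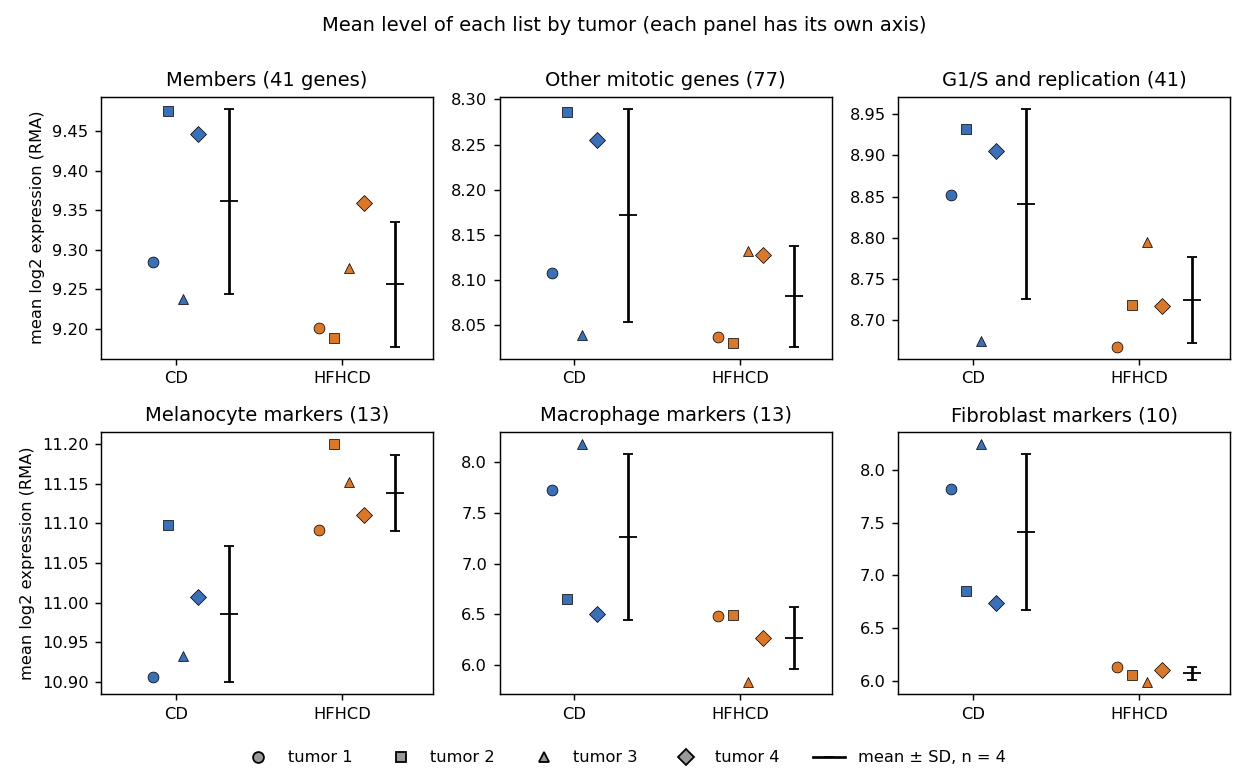
Mean log2 expression over the genes of each list in each tumor, for the members, other mitotic genes, G1/S and replication genes and 3 marker lists, with the mean and SD of 4 tumors per diet beside the points. Each panel has its own axis, which does not start at 0, and CD 1 and CD 3 are the lower CD tumors for the members and the higher ones for macrophage and fibroblast markers.

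With CD 1 and CD 3 left out, 17 of 41 members (41.5%) were lower and 0 higher, against 7.2% lower and 7.34% higher over all genes, and the median log2 fold change was -0.23 against 0.01. The 2 CD tumors left are those with the highest member means, so leaving out the others moves the members toward lower on HFHCD. The share over all genes carries no such choice and is not a like comparison. The count, the genes and the p-values describe these 6 tumors and are not an independent result. All 7 called members were among the 17. The others were Plk1, Kif23, Bub1b, Ncapd2, Espl1, Cenpe, Aurka, Bub1, Foxm1 and Tpx2. Plk1 had the smallest p, with a log2 fold change of -0.40 (SE 0.10, limma's unadjusted p = 0.00279, adjusted p = 0.216), and Cenpe had the largest difference, -0.55 (SE 0.18, unadjusted p = 0.0161, adjusted p = 0.255). Mki67, Cdk1 and Ccna2 were not among the 17.

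Beyond the members, other genes of the same machinery were called rarely. Of all genes, 4.76% were higher and 3.91% lower, and the 77 genes below had smaller shares in both directions. Among 77 measured other mitotic genes, 1 was higher (Troap, which encodes a spindle protein, log2 fold change 0.34, unadjusted p = 0.0435 by limma) and 1 lower (Rad21, the cohesin subunit that separase cuts, -0.20, unadjusted p = 0.0458), with a median of -0.10. Of its parts, 34 other kinetochore genes had 0 calls and a median of -0.04, 28 other spindle and cytokinesis genes had 1, and 15 other condensin and cohesin genes had 1 and a median of -0.18. The 17 genes of the APC/C and its regulators had 0 calls and a median of -0.01. Anapc7, a subunit of the APC/C, and Ube2s, which extends its ubiquitin chains, had the smallest p, at log2 fold changes of -0.28 and -0.16.

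Where 4.76% of all genes were higher and 3.91% lower, 1 of 14 regulators of mitotic entry was higher and 0 lower. This was Pkmyt1 (MYT1), a membrane kinase that holds CDK1 inactive, with a log2 fold change of 0.56, an unadjusted p of 0.000643 and an adjusted p of 0.371 by limma. It was measured at 6.36, 6.47, 6.48 and 6.57 in CD 1 to CD 4 and 7.12, 7.13, 6.74 and 7.13 in HFHCD 1 to HFHCD 4. Among 8 CDK inhibitors, Cdkn1a, which encodes p21, was higher at 0.36 (unadjusted p = 0.0328, adjusted p = 0.537). Its values were 10.78, 10.40, 10.50 and 10.90 in CD 1 to CD 4 and 11.21, 10.73, 11.01 and 11.06 in HFHCD 1 to HFHCD 4, so that only HFHCD 2 fell inside the CD range.

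Of the factors that act at the promoter motifs shown above, 14 B-MYB and DREAM genes gave 2 higher and 1 lower, with a median of 0.05. The shares over all genes were 4.76% higher and 3.91% lower. Nfya, the NF-Y subunit that contacts the CCAAT box, was measured at 8.87, 9.35, 8.62 and 9.22 in CD 1 to CD 4 and 9.40, 9.38, 9.40 and 9.40 in HFHCD 1 to HFHCD 4. Every HFHCD tumor was above every CD tumor, and the log2 fold change was 0.38 (unadjusted p = 0.032 by limma, adjusted p = 0.537). E2f5, a repressor E2F, was at 0.22, and Tfdp1, the dimer partner of E2F factors, at -0.25. Mybl2, which encodes B-MYB, was at 0.05 and was not called.

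G1/S and DNA replication genes, which are transcribed before the mitotic genes in the cycle, had 5 of 41 lower and 0 higher and a median of -0.14. Of all genes, 3.91% were lower and 4.76% higher at the same threshold. The 5 were Mcm6, Mcm4 and Mcm3 of the replicative helicase, the transcription factor E2f3 and Rfc3 of the clamp loader, at log2 fold changes of -0.40, -0.32, -0.28, -0.37 and -0.39. Mcm6 was measured at 10.03, 10.38, 10.24 and 10.26 in CD 1 to CD 4 and 9.70, 9.78, 9.90 and 9.94 in HFHCD 1 to HFHCD 4. Every HFHCD tumor was below every CD tumor, and the adjusted p was 0.423 by limma. The mean of this list was 8.85, 8.93, 8.67 and 8.91 in CD 1 to CD 4 and 8.67, 8.72, 8.79 and 8.72 in HFHCD 1 to HFHCD 4, so that CD 3 again lay within the HFHCD range. Whether the members differed from this list or from the other mitotic genes was not tested.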

How the data were processed

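Total RNA of 8 whole tumors, 4 per diet, was measured on Affymetrix MouseGene2.0ST arrays. Values that the authors deposited are log2 expression summarised by RMA; the submitters' processing notes also list Affymetrix Expression Console, and versions were not stated in the sources used here. RMA scales arrays to each other, but the medians of the deposited arrays still ran from 5.033 to 5.195, so scaling was varied among the alternatives. Levels of different probe sets are not compared. The deposited values ran from 2.22 to 14.05. Among 25429 probe sets, 24675 carried 1 symbol in the platform annotation and entered the test, none carried more than 1, and 754 were unnamed. The number of arrays limits the precision. The labels do not state whether each tumor came from its own mouse. The p-values judge the difference between diets against the spread between these samples. They treat the samples as independent, which could not be checked.

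HFHCD was compared with CD on all 8 arrays in limma 3.58.1 (lmFit, eBayes; R 4.3.3), with no covariate, filter or rescaling. The call was an unadjusted p under 0.05, as in the paper's methods, beside a Benjamini-Hochberg adjustment over the 24675 genes. Each member also had an exact permutation test (two-sided, smallest p 0.0286). The script was tested on simulated data. The members, the lists and the alternatives were chosen with earlier results of these data known. Tumor values are given for called members, for the smallest and largest p in each role class, and for Mki67, Top2a, Cdk1, Plk1 and Foxm1, and of the other lists up to 4 genes with the smallest p were named. Outside this rule, after values were seen, Rfc3, Mybl2, Smc1a, Pole, Prim1 and Gins2 are named and tumor values of Pkmyt1, Cdkn1a, Nfya and Mcm6 are given. Motifs were counted in RefSeq promoters of GRCm38.p6 with Python 3.11.15. A count of KEN motifs in proteins was planned, and protein sequences were not used here.

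The alternatives were a replicate block, each tumor left out, CD 1 and CD 3 left out together, the methods' t-test, a robust prior with a trend, weights per array, centring on medians, quantile or cyclic loess normalization, a filter keeping genes that exceed the 40th percentile in at least 4 arrays, and the adjusted p.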

Additional observations from a re-analysis of the deposited data

Results flagged for a closer look

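In 4 of the 40 groups of 4 tumors formed by the 20 members described in full, 1 tumor stood apart from the other 3 by more than Dixon's 95% critical value allows, which chance gives in about 1 of 20 groups. Foxm1 was 9.05 in CD 1, against 10.15 to 10.24 in the other CD tumors. Bub3 was 10.79 in CD 3, against 11.21 to 11.25. Mki67 was 11.58 in HFHCD 4, against 10.85 to 10.94 in the other HFHCD tumors, and Ttk was 8.40 in the same tumor, against 8.11 to 8.13.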

How the results depend on the processing

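Members higher on HFHCD numbered 0 in every alternative run. Members lower numbered 7, and 6 with the methods' t-test, 7 after quantile normalization and 6 after cyclic loess. They numbered 4 with the replicate block, 3 with a trended and robust prior, 3 with the filter on dim genes (14878 genes kept), 2 after median centring, 12 with array weights, 17 without CD 1 and CD 3 and 0 at an adjusted p under 0.05. Leaving out 1 tumor gave 2 to 13, with 13 without CD 1, 2 without CD 2, 4 without CD 3, 3 without CD 4, 3 without HFHCD 1, 2 without HFHCD 2, 5 without HFHCD 3 and 6 without HFHCD 4. The cause of these shifts was not tested. The share of all genes that were lower moved too, from 3.91% as reported to 3.98% with the replicate block, 3.39% with the methods' t-test, 3.76% with the trended prior, 4.27% with the filter, 3.08% after median centring, 4.43% after quantile normalization, 4.67% after cyclic loess, 6.41% with array weights and 7.2% without CD 1 and CD 3. In the order of the single tumors above it was 7.16%, 4.28%, 3.55%, 4.23%, 2.56%, 2.72%, 3.23% and 2.67%.

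The median log2 fold change of the members was -0.12, ranged from -0.15 to -0.08 with 1 tumor left out, and was -0.23 without CD 1 and CD 3. Cdca8 and Top2a kept their call in all 17 alternatives at the unadjusted threshold. No called member changed sign. Of 13 members described in full and not called, Foxm1 was called lower without CD 1 and without both CD 1 and CD 3, and Plk1 without both and with array weights (-0.28). Their other alternatives stayed uncalled. Over all alternatives of the 13 members the sign of the difference changed in 32 of 234. The 234 include those calls and the adjusted p, which reuses the main fit and cannot change a sign. The deviations of same-numbered tumors of the 2 diets correlated at 0.269, -0.029, -0.265 and 0.051, so the numbers were not read as pairs, and the replicate block shared only a number. For arrays the 4 tumors per diet limit the precision, and no scaling moved the median of all genes by more than 0.02.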
